A study of Mus musculus with 9 samples.

Results

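The mitochondrial ribosomal protein genes are the nuclear genes for the proteins of the ribosome inside mitochondria. They were taken as the protein-coding rows of the gene table whose symbol was Mrpl or Mrps followed by a digit, which gave 78 genes among 54532 in all and 22046 that code for protein. By symbol, 49 belonged to the large subunit (Mrpl) and 29 to the small subunit (Mrps), and 5 pseudogene rows of the same pattern were left out. The 78 genes lay on 17 chromosomes of mm10. RNA-seq of polyadenylated RNA was performed on 3T3-L1 cells, a mouse fibroblast line from ATCC that forms fat cells in culture, in 3 groups of 3 libraries. All cells were kept confluent for 3 days. Undifferentiated cells were the control without differentiation. Differentiated cells received a medium with 1 μM dexamethasone, a glucocorticoid, 0.5 mM IBMX, which blocks phosphodiesterases, 1 μM rosiglitazone, which activates PPARγ, and 10 μg/mL insulin. Lysfree cells received the same agents in a medium that lacked the amino acid lysine. Lysfree and Differentiated thus differ in lysine, whereas each of them differs from Undifferentiated in the whole medium. All 9 libraries come from 1 cell line, and the labels do not say whether replicates were separate cultures, so the p-values measure the spread between these libraries, which may be technical.

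Mitochondria keep a small genome that codes for subunits of the respiratory chain and of ATP synthase, and these few messages are translated by the organelle's own ribosome. All of its proteins are made in the cytosol from nuclear genes and imported, while its ribosomal RNAs come from mitochondrial DNA. The small subunit binds the message and decodes it, and the large subunit joins the amino acids and is anchored to the inner membrane near the tunnel exit. Some of the proteins have counterparts in bacterial ribosomes and others exist only in mitochondria. In fat cells mitochondria supply energy and precursors for lipid synthesis, and their content is known to rise as preadipocytes mature.

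Total counts per library ranged from 15880144 to 21806693, and 77 of the 78 genes had counts, the lowest being 77 in a single library. The groups differed in adipocyte state. In Differentiated against Undifferentiated, 7 of 8 adipocyte markers rose and Cfd, the secreted protease adipsin, fell, and all 6 fibroblast markers fell. In Lysfree against Differentiated, all 8 adipocyte markers fell, with a median log2 fold change of -5.05, and 5 of 6 fibroblast markers rose. Adgre1, Epcam and Myod1, defining genes of macrophages, epithelia and muscle, had no count in any library, and of the 12 markers listed for macrophages, endothelium, epithelium and muscle only Lyz2, Cd68 and Des passed 1 FPKM in any library. The summed level of the 8 adipocyte markers was 361 to 479 FPKM in Undifferentiated, 6517 to 6827 in Differentiated and 236 to 312 in Lysfree libraries, and that of the 6 fibroblast markers was 3612 to 3865, 841 to 845 and 1360 to 1380. The part of cell state in the values below was not tested. In bulk RNA, fewer cells of a type and less RNA per cell cannot be told apart.

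The first Lysfree library stood apart from the other two for short genes. Its FPKM, the level per kilobase of gene scaled to library depth, was divided by the mean of Lysfree 2 and Lysfree 3. This ratio had a median of 1.01 over the 10664 genes above 1 FPKM in every Lysfree library, and ran from 0.833 for genes under 1 kb to 1.10 for genes over 6 kb. The mitochondrial ribosomal genes are short, with a median length of 2214 bases against 4202 bases for all genes whose mean reached 1 CPM, a count scaled to a common library size. Over the 77 genes the ratio had a median of 0.826. It was 0.548 for the 8 genes under 1 kb and 0.994 for the 12 genes over 6 kb, and its Spearman correlation with length was 0.48 (77 genes that share the same 3 libraries, given as a description). Lysfree 1 was the lowest Lysfree library for 55 of the 77 genes. Values without Lysfree 1 are therefore given for the Lysfree counts, medians and fold changes of the mitochondrial ribosomal genes, and as counts and medians for the other lists, and the part of gene length in the results was not tested. Those fits rest on Lysfree 2 and Lysfree 3 alone, after the library that stood apart was dropped. The spread left in them is small, so their calls and adjusted p-values are not stronger evidence than those from all libraries.

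**Figure D1:**
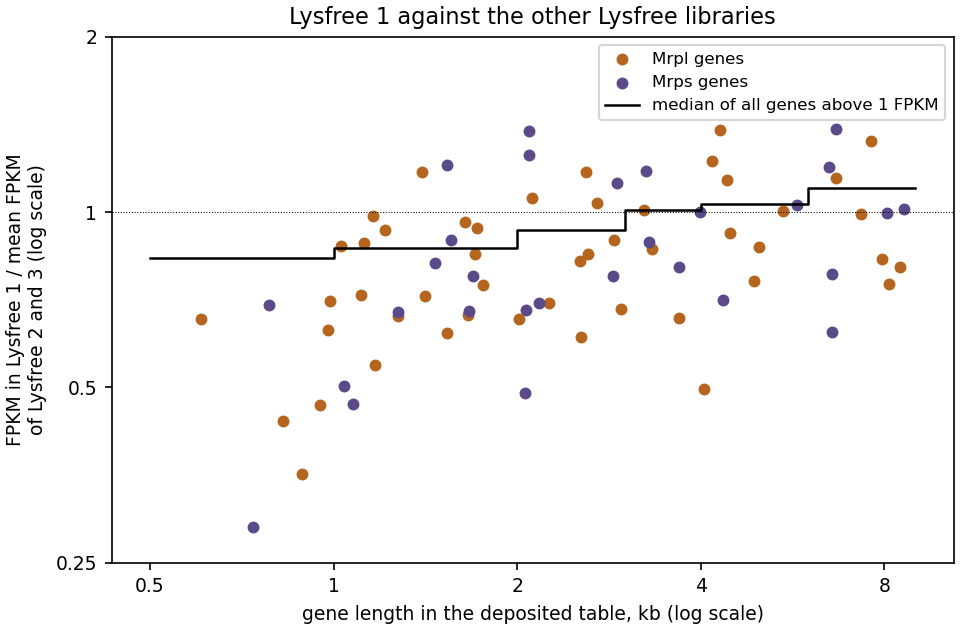
FPKM in Lysfree 1 divided by the mean FPKM of Lysfree 2 and 3 (vertical, log scale) against gene length in kb (horizontal, log scale) for 77 genes, Mrpl in brown and Mrps in purple. The black steps are the medians of all genes above 1 FPKM in 6 length classes, from 0.833 to 1.10, and the 8 shortest mitochondrial ribosomal genes all lie below 1.

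By summed FPKM, the mitochondrial ribosomal genes were highest in Differentiated cells, and the Lysfree mean lay nearer to the Undifferentiated than to the Differentiated mean. Their summed FPKM was 1171, 1382 and 1230 in the Undifferentiated libraries, 2303, 2199 and 2342 in the Differentiated libraries, and 1167, 1458 and 1478 in the Lysfree libraries. The Differentiated libraries were all above the rest, and the Undifferentiated and Lysfree libraries overlapped. The means were 1261 ± 109 (SD, n = 3), 2281 ± 74.0 and 1368 ± 174. Thus the Differentiated mean was 1.81 times the Undifferentiated mean, and the Lysfree mean was 1.08 times the Undifferentiated mean, or 1.16 times without Lysfree 1. As a share of all counts the genes made up 0.25% to 0.286% in Undifferentiated, 0.464% to 0.495% in Differentiated and 0.288% to 0.346% in Lysfree libraries. By this share, unlike the sum, every Lysfree library was above every Undifferentiated library. The mean share in Lysfree was 1.225 times that in Undifferentiated, or 1.30 times without Lysfree 1. Gene by gene, the Lysfree mean was between the means of the other groups for 43 of 77 genes, below both for 26 and above both for 8. Without Lysfree 1 these counts were 46, 21 and 10. The median coefficient of variation over the genes was 7.90% in Undifferentiated, 5.06% in Differentiated and 13.7% in Lysfree.

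**Figure D2:**
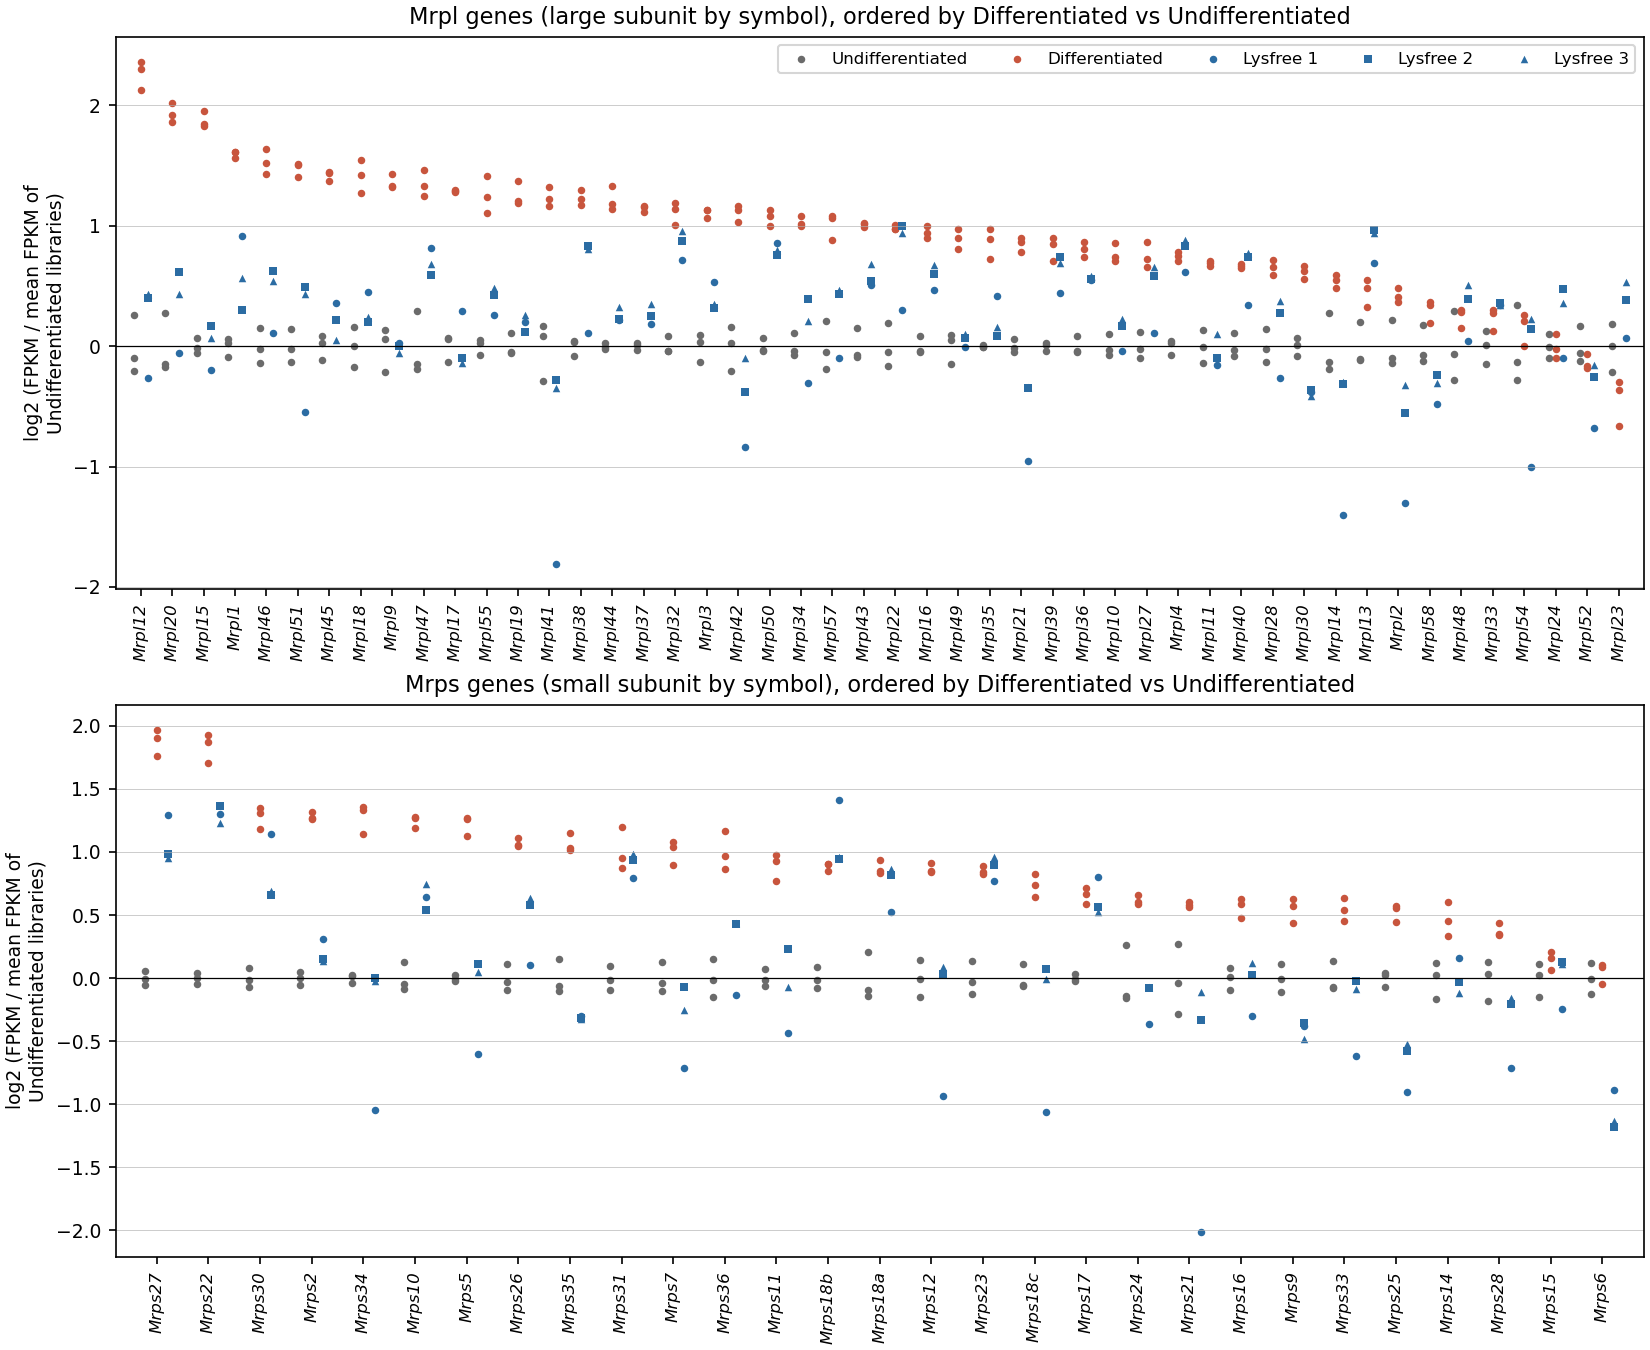
Each of the 77 genes with counts in each library, as the log2 ratio of its FPKM to its mean FPKM in the Undifferentiated libraries (vertical), with Mrpl genes above and Mrps genes below, ordered by the fold change of Differentiated vs Undifferentiated. The Differentiated mean is above the Undifferentiated mean for 74 genes, and Lysfree 1 (blue circles) is the lowest Lysfree library for 55.

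The level per length differed widely among the genes. In Undifferentiated cells the group means ran from 1.496 FPKM for Mrps10 to 99.0 FPKM for Mrps6, and in Differentiated cells from 2.35 FPKM for Mrpl48 to 102.5 FPKM for Mrps6. In Lysfree cells the top gene was Mrpl34, at 51.1 ± 12.01 FPKM (SD, n = 3), with Mrps6 next at 47.4 ± 5.37. These neighbours in the order did not differ beyond their spread.

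In Differentiated against Undifferentiated cells, which asks what changed on adipocyte differentiation, 70 of 77 mitochondrial ribosomal genes rose, 1 fell and 6 were not called (edgeR quasi-likelihood test, adjusted p under 0.05). Among all 24402 genes tested, 23.0% rose and 23.2% fell, and among those with a mean of at least 1 CPM the shares were 38.6% and 39.0%. At least 2-fold higher were 30 of the 77 genes and none was 2-fold lower, nor with DESeq2, limma or an unadjusted p under 0.05, against 10.4% and 11.4% of all genes. The median log2 fold change was 0.87, against 0.02 over all genes tested. In the large subunit 43 of 48 genes rose and in the small subunit 27 of 29. The only gene that fell was Mrpl23, and a further gene was called lower without Undifferentiated 1 or without Differentiated 3, which gave 2 in each case.

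Mrpl12, at chr11:120484613-120489065 on the plus strand, rose most. Its protein forms the flexible stalk of the large subunit that recruits translation factors, and it also binds the mitochondrial RNA polymerase. Its FPKM was 17.8, 24.6 and 19.1 in Undifferentiated, 101.2, 89.8 and 105.3 in Differentiated, and 17.0, 27.1 and 27.7 in Lysfree libraries. The Differentiated libraries stood clear of all others, and the other groups overlapped. The log2 fold change of Mrpl12 was 2.24 (SE 0.07, edgeR adjusted p = 3.26e-248) on differentiation. An opposite-strand lincRNA, Gm16755, overlaps the gene, but its mean count was 13.6.

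Mrpl20 (chr4:155802878-155809975, plus strand) codes for a protein that binds the large ribosomal RNA early in assembly. It had 17.4, 23.3 and 17.1 FPKM in Undifferentiated and 72.7, 69.9 and 78.3 FPKM in Differentiated libraries, a log2 fold change of 1.90 (SE 0.07, edgeR adjusted p = 3.10e-173). Mrpl15 (chr1:4773206-4785739, minus strand) had 4.46, 4.72 and 4.31 FPKM in Undifferentiated and 16.1, 16.0 and 17.5 FPKM in Differentiated libraries. Its log2 fold change was 1.85 (SE 0.07, edgeR adjusted p = 1.49e-175). In both genes every Differentiated library was far above every Undifferentiated library.

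Further large-subunit genes that rose strongly were Mrpl1, whose protein forms the mobile arm near the tRNA exit site, with a log2 fold change of 1.56, and Mrpl46, a protein found only in mitochondrial ribosomes, with 1.5. Mrpl46 and the small-subunit gene Mrps11 overlap on opposite strands of chromosome 7, so their counts are uncertain where the strand setting of the counting is not known. Mrpl45, the membrane anchor at the tunnel exit, rose by a log2 fold change of 1.39, from 15.4 ± 1.10 to 41.3 ± 1.17 FPKM. Mrpl11, at the base of the stalk, rose less, by 0.66. Mrpl58, a peptidyl-tRNA hydrolase that frees stalled ribosomes, rose by 0.27 (edgeR adjusted p = 0.0101), among the smallest of the called changes.

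In the small subunit the largest rises were those of Mrps27, a protein with pentatricopeptide repeats, and Mrps22, both found only in mitochondrial ribosomes. Mrps27 (chr13:99344786-99415562, plus strand) had 8.16, 7.78 and 7.55 FPKM in Undifferentiated and 26.6, 29.3 and 30.6 FPKM in Differentiated libraries, with a log2 fold change of 1.85 (SE 0.08, edgeR adjusted p = 3.82e-107). Mrps22 (chr9:98588730-98601660, minus strand) had 3.94, 3.82 and 4.04 FPKM in Undifferentiated and 14.9, 12.8 and 14.4 FPKM in Differentiated libraries, with a log2 fold change of 1.81 (SE 0.09, edgeR adjusted p = 7.33e-99). In both genes every Differentiated library was more than 3 times the highest Undifferentiated library. Next came Mrps30 (1.26), Mrps2 (1.26) and Mrps34 (1.25). Mrps12, in the decoding centre, had 16.0 ± 1.61 FPKM in Undifferentiated and 29.2 ± 0.846 FPKM in Differentiated cells (SD, n = 3) and rose by 0.84 on the log2 scale.

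Mrpl23 fell. Its protein lines the tunnel exit, where its bacterial relative docks membrane targeting factors. The gene had 5.71, 7.51 and 6.63 FPKM in Undifferentiated libraries and 5.15, 4.18 and 5.38 FPKM in Differentiated libraries. The groups came close to each other without overlap, and the log2 fold change was -0.46 (SE 0.09, edgeR adjusted p = 4.16e-07).

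**Figure D3:**
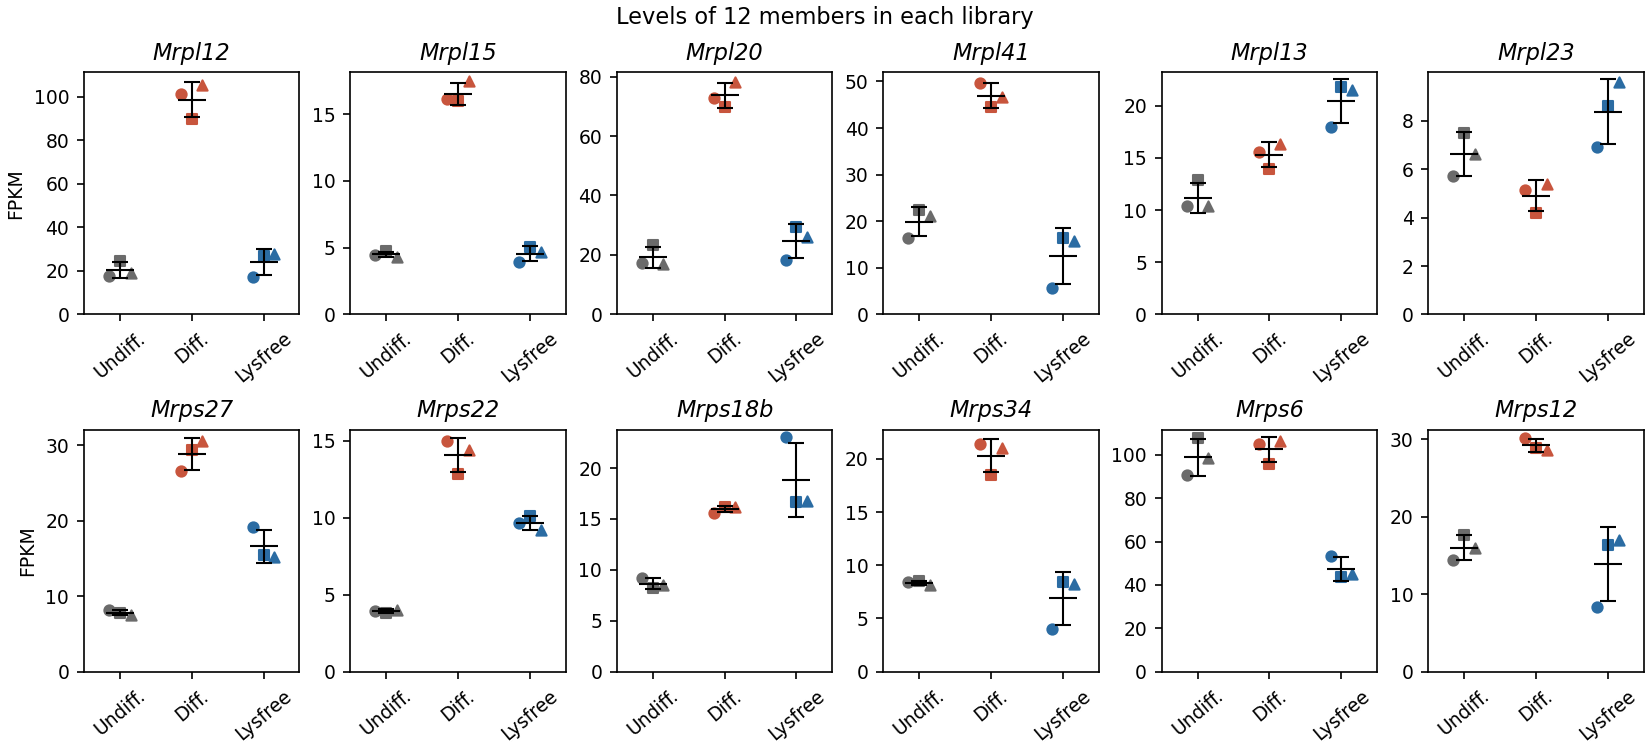
FPKM of 12 genes (vertical, from 0) in Undifferentiated, Differentiated and Lysfree libraries, with replicate 1 as a circle, 2 as a square and 3 as a triangle. Bars are the mean ± SD of 3 libraries. In Lysfree cells Mrpl12, Mrpl15 and Mrpl20 lie far below the Differentiated libraries, with ranges that overlap the Undifferentiated ones. Mrpl20 was nevertheless called higher than in Undifferentiated cells (0.40). In the Lysfree libraries Mrps22 and Mrps27 lie above all Undifferentiated libraries, and Mrps6 lies below them. The means of Mrpl13 and Mrpl23 are highest in Lysfree cells, but for Mrpl23 the Lysfree and Undifferentiated libraries overlap.

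Lysfree against Differentiated, the comparison at equal agents with and without lysine, went the other way. Of 77 genes, 56 were lower, 3 higher and 18 not called, against 18.8% lower and 19.7% higher among all 24130 genes tested, and 30.5% and 34.5% among those with a mean of at least 1 CPM. At least 2-fold lower were 23 genes and 2-fold higher none, nor with DESeq2, limma or an unadjusted p under 0.05, against 10.5% and 8.14% of all genes. The median log2 fold change was -0.67, against -0.06 over all genes. Without Lysfree 1, 58 genes were lower, 5 higher and 19 at least 2-fold lower, with a median of -0.64, against 22.6% of all genes lower and 22.6% higher (37.1% and 39.1% of those with a mean of at least 1 CPM), and 10.9% at least 2-fold lower and 8.04% at least 2-fold higher. This comparison and the one above share the Differentiated libraries, so their opposite signs are not independent of each other.

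Mrpl12 again had the largest change, with a log2 fold change of -1.98 (SE 0.14, edgeR adjusted p = 2.45e-10). Without Lysfree 1 it was -1.80. Mrpl15 had 3.92, 5.05 and 4.70 FPKM in the Lysfree libraries, none of which came near the Differentiated libraries, and a log2 fold change of -1.79, or -1.71 without Lysfree 1. For Mrpl20 the Lysfree values were 18.5, 29.5 and 26.0 FPKM and the log2 fold change was -1.51, or -1.36 without Lysfree 1. Against Undifferentiated, Mrpl20 was higher by 0.40 (edgeR adjusted p = 0.0287), or 0.54 without Lysfree 1. Mrpl12 was not called there with all libraries (0.27, edgeR adjusted p = 0.179) and was called higher without Lysfree 1 (0.44, edgeR adjusted p = 5.13e-06).

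Mrpl41, a protein found only in mitochondrial ribosomes, had 49.8, 44.6 and 46.6 FPKM in Differentiated and 5.70, 16.4 and 15.7 FPKM in Lysfree libraries. Lysfree 1 was far below its group for this gene of 888 bases. The log2 fold change of Mrpl41 was -1.82 (SE 0.23, edgeR adjusted p = 1.15e-06) with all libraries and -1.50 without Lysfree 1. Mrpl42 followed with -1.45 (-1.30 without Lysfree 1).

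In the small subunit, 23 of 29 genes were lower and none was higher (edgeR), with 1 at an unadjusted p under 0.05 and none with DESeq2 or limma. Without Lysfree 1 the counts were also 23 and 0. The largest decrease was that of Mrps34, with 21.4, 18.5 and 21.0 FPKM in Differentiated and 4.05, 8.38 and 8.21 FPKM in Lysfree libraries and a log2 fold change of -1.49 (SE 0.19, edgeR adjusted p = 1.03e-06), or -1.24 without Lysfree 1. Mrps34 overlaps Mapk8ip3 on the opposite strand, whose own log2 fold change was -0.51. Mrps35 came next and was even across its libraries, at 3.01, 2.98 and 2.97 FPKM in Lysfree, with a log2 fold change of -1.32 (-1.34 without Lysfree 1). Mrps5, beside the channel where the message enters, had -1.27 (-1.09 without Lysfree 1), Mrps7, in the head of the subunit, -1.26 (-1.12), and Mrps21 -1.12. The last of these had 8.70, 27.8 and 32.6 FPKM in the Lysfree libraries, so that its log2 fold change was -0.75 without Lysfree 1.

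The 3 genes that were higher in Lysfree than in Differentiated cells were Mrpl23, Mrpl13 and Mrpl24. Mrpl23 had 6.92, 8.60 and 9.59 FPKM in Lysfree libraries, all above the Differentiated libraries, with a log2 fold change of 0.84 (SE 0.14, edgeR adjusted p = 2.75e-05), or 0.94 without Lysfree 1. Against Undifferentiated, Mrpl23 was higher by 0.39 (edgeR adjusted p = 0.0194), or 0.48 without Lysfree 1, and with all libraries these groups overlapped. Mrpl13 had 10.4, 12.9 and 10.4 FPKM in Undifferentiated, 15.6, 14.0 and 16.4 in Differentiated and 18.0, 21.9 and 21.5 in Lysfree libraries. The 3 groups followed each other without overlap, and the log2 fold change against Differentiated was 0.48 (SE 0.10, edgeR adjusted p = 0.000429), or 0.55 without Lysfree 1. Mrpl13 overlaps Mtbp on the opposite strand, whose log2 fold change was 0.30. Against Undifferentiated, Mtbp had 0.54 in Differentiated and 0.85 in Lysfree cells, where Mrpl13 had 0.42 and 0.92. The counts of Mrpl13 are uncertain where the strand setting of the counting is not known. For Mrpl24, at the tunnel exit like Mrpl23, the Lysfree libraries at 16.9, 25.2 and 23.2 FPKM overlapped the Differentiated ones, and its log2 fold change of 0.34 had an adjusted p of 0.0474 (edgeR), near the threshold. Without Lysfree 1 it was 0.47.

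Against Undifferentiated cells, the Lysfree libraries were mixed. Of 77 genes, 31 were higher, 8 lower and 38 not called, against 18.0% higher and 17.1% lower among all 23994 genes tested, and 32.2% and 28.1% among those with a mean of at least 1 CPM. These reference genes were not matched to the mitochondrial ribosomal genes in abundance. At least 2-fold higher were 3 genes and 2-fold lower 1, against 5.52% and 8.76% of all genes. The median log2 fold change was 0.27, against -0.02 over all genes. Without Lysfree 1, 42 genes were higher and 9 lower, 1 gene was 2-fold higher and 1 was 2-fold lower, and the median was 0.32. For all genes in that fit 20.2% were higher and 20.4% lower (35.6% and 33.9% of those with a mean of at least 1 CPM), and 5.08% were 2-fold higher and 8.85% 2-fold lower. The count of lower genes was 4 without Undifferentiated 2 and also without Undifferentiated 3.

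The genes that were 2-fold higher were all small-subunit genes. Mrps22 had 9.68, 10.1 and 9.21 FPKM in Lysfree libraries, all more than 2 times the Undifferentiated libraries and all below the Differentiated libraries. Its log2 fold change was 1.35 (SE 0.13, edgeR adjusted p = 1.24e-10) and 1.32 without Lysfree 1. Mrps27 had 19.1, 15.5 and 15.1 FPKM, with a log2 fold change of 1.13 (SE 0.13, edgeR adjusted p = 1.43e-08) that was 0.99 without Lysfree 1. Mrps18b had 9.21, 8.21 and 8.55 FPKM in Undifferentiated, 15.6, 16.2 and 16.2 in Differentiated and 23.0, 16.7 and 16.8 in Lysfree libraries. Lysfree 1 was here the high library, and the log2 fold change of Mrps18b was 1.17 (SE 0.14, edgeR adjusted p = 1.20e-08) with it and 0.97 without it.

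The Mrps18 genes are related to each other. Vertebrates have 3 of them, and their proteins occupy different places, Mrps18a in the large subunit and the other two in the small subunit. On differentiation Mrps18a, Mrps18b and Mrps18c all rose, by 0.84, 0.86 and 0.71. In Lysfree cells Mrps18a was higher than in Undifferentiated cells by a log2 fold change of 0.79 (0.86 without Lysfree 1) and was not called against Differentiated (-0.06, or 0.02 without Lysfree 1). Mrps18c, with 4.60, 10.1 and 9.53 FPKM in Lysfree and 9.25, 10.4 and 9.17 FPKM in Undifferentiated libraries, was not called against Undifferentiated (-0.20, or 0.05 without Lysfree 1) and was lower than in Differentiated cells (-0.92, or -0.66 without Lysfree 1). No test of the difference between the 3 genes was made.

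In the large subunit the largest increases in Lysfree against Undifferentiated were in Mrpl13 (0.92), Mrpl32 (0.90), whose protein is cut by a protease of the inner membrane before assembly, Mrpl50 (0.85), and Mrpl22 (0.83) and Mrpl4 (0.83), whose proteins line the exit tunnel. Mrps31 (0.95) and Mrps23 (0.93) were the next small-subunit genes. All 7 were higher in every Lysfree library than in every Undifferentiated library. They were picked by their increase in this same comparison, so this adds no evidence. Without Lysfree 1 the values were 0.97 for Mrpl13, 0.93 for Mrpl32, 0.80 for Mrpl50, 0.99 for Mrpl22, 0.88 for Mrpl4, 0.98 for Mrps31 and 0.95 for Mrps23. Mrpl4 had 26.2, 30.3 and 31.4 FPKM in Lysfree and 28.6, 27.8 and 29.4 FPKM in Differentiated libraries, groups that overlapped. Mrpl4 was not called between them with all libraries (0.10) and was called higher without Lysfree 1 (0.16, edgeR adjusted p = 0.0164).

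Of the 8 genes that were lower than in Undifferentiated cells, Mrps6 stood out. It is the most abundant of the small-subunit genes, at chr16:92058270-92112227 on the plus strand, and its protein lies on the platform of the small subunit. It had 90.5, 107.7 and 98.6 FPKM in Undifferentiated, 105.2, 95.8 and 106.6 in Differentiated and 53.6, 43.6 and 45.1 in Lysfree libraries. Undifferentiated and Differentiated libraries overlapped, and every Lysfree library was far below them. The log2 fold change was 0.02 (SE 0.06, edgeR adjusted p = 0.754) in Differentiated and -1.02 (SE 0.11, edgeR adjusted p = 1.47e-09) in Lysfree cells against Undifferentiated, and -1.14 for the latter without Lysfree 1. Against Differentiated the change in Lysfree was -1.05, or -1.16 without Lysfree 1. Slc5a3, the inositol transporter gene, and Gm16310, a sense intronic transcript, overlap Mrps6 on the same strand, so reads of the shared part are uncertain. Slc5a3 had mean levels of 27.8, 14.5 and 19.9 FPKM in the 3 groups. Unlike Mrps6, its log2 fold change was -0.97 in Differentiated against Undifferentiated and 0.52 in Lysfree against Differentiated. In Lysfree against Undifferentiated it was -0.439, in the same direction as Mrps6. Gm16310, with a mean count of 52, had -0.509 in Differentiated against Undifferentiated. In Lysfree cells Gm16310 had -1.5 against Undifferentiated and -0.997 against Differentiated, in the same direction as Mrps6. The part of these overlaps in the values of Mrps6 was not tested.

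The other lower genes were Mrpl2 (-0.62), which sits at the catalytic centre of the large subunit, Mrpl41 (-0.61), Mrpl14 (-0.54), Mrpl21 (-0.47), Mrpl30 (-0.34), Mrps25 (-0.61) and Mrps9 (-0.36), whose bacterial relative touches the tRNA in the peptidyl site. Without Lysfree 1 the values were -0.41 for Mrpl2, -0.29 for Mrpl41 and for Mrpl14, and -0.32 for Mrpl21, all with an edgeR adjusted p under 0.05. They were -0.37 for Mrpl30, -0.53 for Mrps25 and -0.40 for Mrps9.

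Large and small subunits were compared by their sums. The summed FPKM of the large-subunit genes divided by that of the small-subunit genes was 1.83, 1.85 and 1.81 in Undifferentiated, 2.15, 2.18 and 2.18 in Differentiated, and 2.05, 2.22 and 2.23 in Lysfree libraries. Every Differentiated and Lysfree library was above every Undifferentiated library. Mrps6 made up a large part of the small-subunit sum. Without Mrps6 the ratio was 2.35, 2.38 and 2.33 in Undifferentiated, 2.51, 2.53 and 2.55 in Differentiated and 2.38, 2.45 and 2.48 in Lysfree libraries, where Lysfree 1 met the top of the Undifferentiated range. No p-value is given for these ratios, since they sum over a chosen set of genes.

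**Figure D4:**
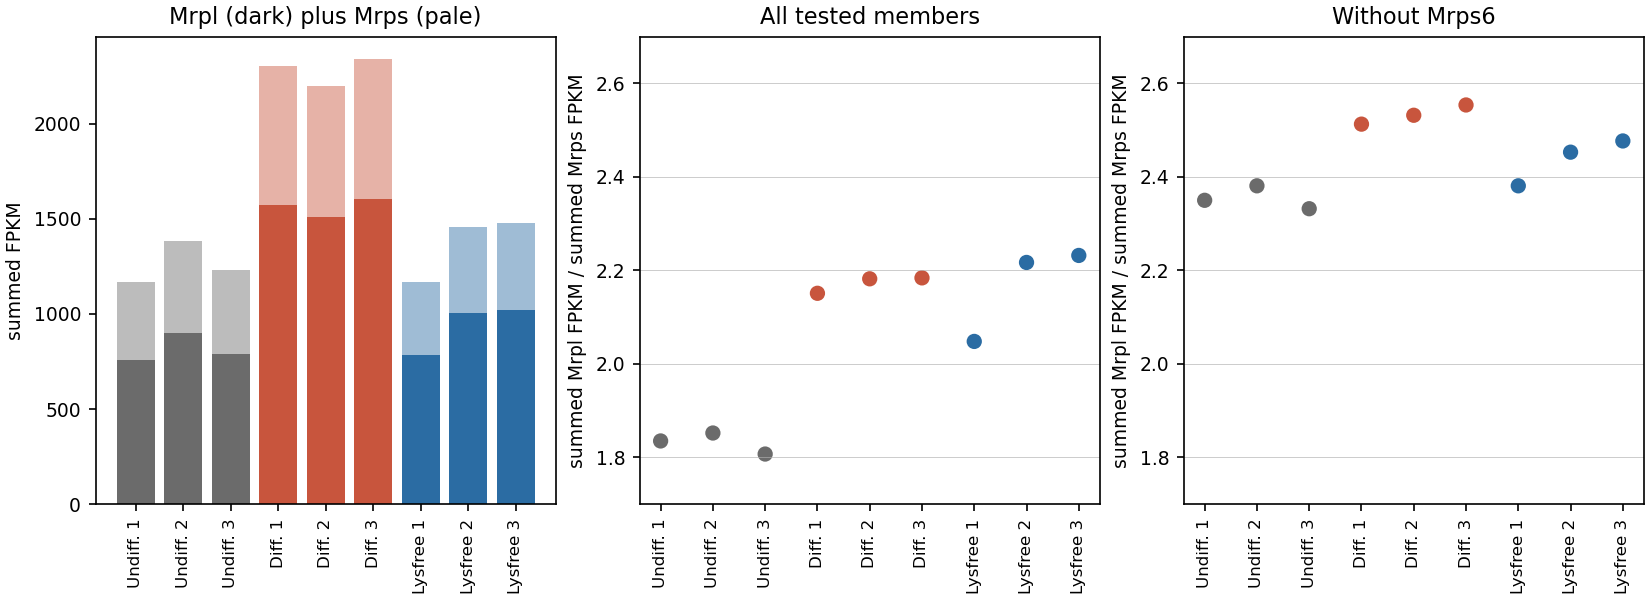
Summed FPKM of the mitochondrial ribosomal genes per library (left, bars from 0), and the ratio of the summed Mrpl FPKM to the summed Mrps FPKM with all genes (middle) and without Mrps6 (right). The vertical axes of the ratio panels run from 1.7 to 2.7. The Undifferentiated ratios rise from between 1.81 and 1.85 to between 2.33 and 2.38 when Mrps6 is left out.

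By the median of the genes' log2 fold changes, the subunits were close. It was 0.97 for the large and 0.84 for the small subunit in Differentiated against Undifferentiated, and -0.65 and -0.70 in Lysfree against Differentiated. The order of the last pair turned without Lysfree 1, to -0.67 and -0.56. In Lysfree against Undifferentiated it was 0.31 for the large and 0.01 for the small subunit, or 0.37 and 0.10 without Lysfree 1. The quartiles in that comparison, 0.07 to 0.61 and -0.23 to 0.69, overlapped widely. By the median FPKM of each subunit the order there was reversed. The Lysfree mean of that median was 1.095 times the Undifferentiated mean for the large and 1.21 times for the small subunit. Without Lysfree 1 it was 1.12 and 1.30 times. Mrps30 and Mrps18a carry small-subunit symbols although their proteins are built into the large subunit, and Mrps36 is known as a part of the 2-oxoglutarate dehydrogenase complex. With these genes placed by protein, the median log2 fold changes were 0.33 and -0.04 in Lysfree against Undifferentiated, and 0.41 and 0.09 without Lysfree 1. The sign for the small subunit thus depended on that library. Mrps36 itself rose in Differentiated cells (0.97) and was lower in Lysfree than in Differentiated cells (-0.67, or -0.53 without Lysfree 1).

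Genes were also divided by whether their protein has a counterpart in bacterial ribosomes. The 46 genes with one had a median log2 fold change of 0.80 in Differentiated against Undifferentiated and the 30 tested genes without one had 1.01. In Lysfree against Differentiated the medians were -0.76 and -0.56, or -0.69 and -0.52 without Lysfree 1. The widest gap was within the small subunit in Lysfree against Undifferentiated, where 2 of the 16 genes with a counterpart were higher and 2 lower (median -0.09), while of the 10 genes without a counterpart 6 were higher and 1 lower (median 0.72). Among all genes with a mean of at least 1 CPM 32.2% were higher and 28.1% lower. Without Lysfree 1 the first 16 genes again gave 2 higher and 2 lower but the median turned to 0.07, and the 10 genes gave 6 higher and 2 lower (median 0.79). The latter include Mrps22, Mrps27, Mrps18b, Mrps31 and Mrps23. Mrps18b was classed there although it is related to Mrps18c, which was classed with a counterpart. With all libraries the quartiles were -0.27 to 0.06 for the 16 genes and -0.21 to 1.08 for the 10 genes, and they overlapped. This gap was picked as the widest of those looked at, and no test of it was made. In the large subunit the same medians were 0.33 and 0.32, or 0.37 and 0.47 without Lysfree 1.

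Mrpl48, Mrpl52, Mrpl54 and Mrps15 were called in no comparison with all libraries. Without Lysfree 1, Mrpl48 was called higher in Lysfree than in Undifferentiated (0.46, edgeR adjusted p = 9.74e-05) and Differentiated cells (0.25, edgeR adjusted p = 0.0213), and the other three were not called. Mrps15 had 22.8 ± 2.09, 25.3 ± 1.28 and 23.0 ± 3.21 FPKM in Undifferentiated, Differentiated and Lysfree cells (SD, n = 3), and its log2 fold change on differentiation was 0.12 (SE 0.08). Mrpl52 had means of 43.2, 39.3 and 33.9 FPKM. Mrpl54 is a gene of 825 bases, and its Lysfree libraries at 17.3, 38.4 and 40.7 FPKM were far apart, with an SE of 0.19 for the log2 fold change against Undifferentiated. Mrpl48, at 1.98 to 2.49 FPKM on average, lies on the opposite strand across Rab6a, and its counts are uncertain for that reason. Mrpl53 had a count of 0 in all 9 libraries. It lies within the span of Gm42688 on the same strand, a protein-coding gene model with a mean count of 36.2, and reads over both would have been ambiguous, so its level is not known from these tables.

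Promoter windows from RefSeq (build GRCm38.p6, from 250 bases before to 50 after the start) were matched by symbol for 69 of the 78 genes and searched on both strands for letters known to bind regulators of mitochondrial genes. GCGCANGCG, the core of the NRF1 site, was found for 16 of the 69 genes, or 23.2%, against 16.2% of 9005 coding genes with a mean of at least 1 CPM and 7.03% of all 27025 genes with a window. CCGGAAG, an ETS site of the kind bound by GABPA, was found for 26 genes or 37.7%, against 21.2% and 9.93%. AAGATGGCG, the site of YY1 around a start codon, was found for 8 genes or 11.6%, against 3.83% and 1.64%. CACGTG, the E-box bound by MYC, was found for 7.25%, against 11.9% and 8.09%, and the CCAAT box for 39.1%, against 43.9% and 41.1%. At least 1 of the first 3 motifs was present in 42 of 69 genes or 60.9%, against 35.9% and 16.5%. These motifs were not particular to the family. The NRF1, ETS and YY1 letters were found for 31.3%, 23.9% and 10.4% of 67 nuclear genes of the respiratory chain and ATP synthase. For 64 genes of the cytosolic ribosome the shares were 15.6%, 40.6% and 6.25%. Of the 25 matched genes that were 2-fold higher in Differentiated cells, 7 had the NRF1 letters and 7 the ETS letters, against 9 and 19 of the other 44. These matches are letters in a window and say nothing about binding in these cells.

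The stretches below run from 120 bases before to 30 bases after the start of genes whose values are given above, and of Mrpl9. Matches to the NRF1, ETS and YY1 letters are in capitals. Mrpl9 had log2 fold changes of 1.33 in Differentiated and 0.04 in Lysfree against Undifferentiated, and -1.31 in Lysfree against Differentiated. Without Lysfree 1 the last values were -0.01 against Undifferentiated and -1.34 against Differentiated. Mrpl12 (chr11:120484517-120484666, plus strand) and Mrpl9 (chr3:94443216-94443365, plus strand) hold the NRF1 letters. Mrps27 (chr13:99344666-99344815, plus strand) and Mrps18a (chr17:46110884-46111033, plus strand) hold ETS and YY1 letters, and Mrps22 (chr9:98601650-98601799, minus strand) holds the ETS letters. Mrps6 (chr16:92058216-92058365, plus strand) and Mrpl23 (chr7:142532912-142533061, plus strand) hold none of the 3 in this stretch. Neither do the same stretches of Mrpl20, Mrpl41 and Mrps18b, which rose on differentiation by log2 fold changes of 1.90, 1.21 and 0.86. Outside this stretch, the whole window of Mrps18b holds the NRF1 letters at position -224 and the ETS letters at position 44. The whole windows of Mrps6, Mrpl23, Mrpl20 and Mrpl41 hold none of the 3.
Mrpl12: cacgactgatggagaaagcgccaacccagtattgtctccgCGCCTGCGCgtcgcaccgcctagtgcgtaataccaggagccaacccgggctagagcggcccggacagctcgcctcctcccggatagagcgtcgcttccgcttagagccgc
Mrpl9: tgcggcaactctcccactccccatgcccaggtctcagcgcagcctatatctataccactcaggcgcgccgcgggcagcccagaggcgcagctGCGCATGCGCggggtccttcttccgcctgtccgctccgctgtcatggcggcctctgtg
Mrps27: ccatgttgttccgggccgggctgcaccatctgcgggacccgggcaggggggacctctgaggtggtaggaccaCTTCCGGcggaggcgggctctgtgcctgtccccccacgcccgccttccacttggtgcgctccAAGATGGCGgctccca
Mrps18a: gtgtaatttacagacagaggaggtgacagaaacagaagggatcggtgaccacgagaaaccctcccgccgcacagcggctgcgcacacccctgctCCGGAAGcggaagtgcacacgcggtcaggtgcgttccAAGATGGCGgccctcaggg
Mrps22: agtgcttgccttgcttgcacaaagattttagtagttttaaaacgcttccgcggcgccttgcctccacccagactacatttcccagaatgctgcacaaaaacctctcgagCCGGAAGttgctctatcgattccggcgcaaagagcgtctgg
Mrps6: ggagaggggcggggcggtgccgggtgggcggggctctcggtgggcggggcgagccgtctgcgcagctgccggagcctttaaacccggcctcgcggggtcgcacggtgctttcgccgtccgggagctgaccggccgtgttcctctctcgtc
Mrpl23: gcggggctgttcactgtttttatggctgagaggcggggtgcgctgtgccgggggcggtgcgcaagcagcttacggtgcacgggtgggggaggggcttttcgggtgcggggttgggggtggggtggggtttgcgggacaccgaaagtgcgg

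The counts of the lists that follow stand beside these shares of genes with a mean of at least 1 CPM: 38.6% higher and 39.0% lower in Differentiated against Undifferentiated, 32.2% and 28.1% in Lysfree against Undifferentiated, and 34.5% and 30.5% in Lysfree against Differentiated. For counts without Lysfree 1 the shares were 35.6% and 33.9% in Lysfree against Undifferentiated, and 39.1% and 37.1% in Lysfree against Differentiated. The regulators differed in direction. In Differentiated against Undifferentiated, 14 of 21 genes of mitochondrial transcription and biogenesis rose and 3 fell (median 0.51). The largest rises were those of Ppargc1b, the coactivator PGC-1β, with means of 0.679 and 13.4 FPKM, and of Myc, with 11.2 and 63.9 FPKM. In Lysfree cells Ppargc1b was at 1.03 FPKM on average, whereas Myc was at 61.5 FPKM, with a log2 fold change of 0.01 against Differentiated. Esrra, a nuclear receptor that works with these coactivators, rose by 1.33 on differentiation and was lower in Lysfree than in Differentiated cells (-1.52, or -1.29 without Lysfree 1). Nrf1 was not called on differentiation (0.15) and was higher in Lysfree cells than in either of the other groups (0.91 and 0.75), as was Ppargc1a (1.58 and 1.00). Across this list 6 genes were higher and 6 lower in Lysfree against Differentiated, with a median of -0.03, shares of 28.6% each that were below those of genes with a mean of at least 1 CPM. Without Lysfree 1 the counts were 7 and 10 (median -0.15).

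Other parts of the same machinery were described by the same counts. The mitochondrial ribosomal proteins without an Mrp symbol gave 3 of 5 higher in Differentiated cells, led by Ptcd3 (log2 fold change 1.91) and Dap3 (0.83), and 4 of 5 lower in Lysfree than in Differentiated cells (median -0.74, or -0.65 with 4 lower without Lysfree 1). Of 17 tested translation factors, 15 rose on differentiation (median 0.80) and 11 were lower in Lysfree than in Differentiated cells (median -0.59), or 13 without Lysfree 1 (median -0.63). Gfm1, the elongation factor that moves the ribosome along, rose by 1.83 and Gfm2, which splits it for recycling, by 1.71. Tufm, which brings in the tRNAs, was at 38.6, 105.1 and 34.8 FPKM in the 3 groups. Of 29 ribosome assembly and ribosomal RNA factors, 20 rose and 2 fell on differentiation (median 0.57), with Rpusd3 (1.92) and Mrm3 (1.52) the largest rises and Mrm1 (-1.09) and Mettl17 (-0.59) the falls. In Lysfree against Differentiated this list was divided, with 7 higher and 13 lower (median -0.22), or 8 and 13 without Lysfree 1 (median -0.14). Mrm1 (1.25) and Fastkd2 (1.15) were the largest increases there, and Rpusd3 (-1.49) and Trmt2b (-0.99) the largest decreases.

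The list of 22 genes for charging mitochondrial tRNAs holds the aminoacyl-tRNA synthetases together with Gatb, Gatc and Qrsl1, subunits of the amidotransferase that makes glutaminyl-tRNA. They rose on differentiation in 17 cases (median 0.72), led by Mars2 (1.87) and Nars2 (1.47). Against Undifferentiated, 13 were higher and none lower in Lysfree cells (edgeR, median 0.54), and 10 were lower and 2 higher against Differentiated (median -0.21). Without Lysfree 1 the counts were 13 higher and 1 lower against Undifferentiated (median 0.56), and 12 lower and 3 higher against Differentiated (median -0.26). With all libraries no gene of this list was called lower against Undifferentiated with DESeq2 or limma either, and at an unadjusted p under 0.05 there was none with edgeR or DESeq2 and 1 with limma. Kars, which charges lysine tRNA in the cytosol and in mitochondria, was at 27.6, 46.5 and 43.7 FPKM and was not called in Lysfree against Differentiated.

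What the ribosome translates and what it serves moved by different amounts. The 13 mitochondrially encoded messages gave 7 higher and 3 lower on differentiation (median 0.34). In Lysfree cells these messages depended on a single library. For mt-Nd6 the Lysfree libraries had 1183, 368 and 393.5 FPKM, against 573.2, 636.3 and 607.4 in Undifferentiated, and for mt-Nd2 they had 1143, 442.7 and 478.6 FPKM, against 673.8, 674.3 and 749.6. Lysfree 1 was far above the Undifferentiated libraries and the other two Lysfree libraries were below them. With all libraries none of the 13 was called in Lysfree against Undifferentiated with edgeR, DESeq2 or limma, nor at an unadjusted p under 0.05 (median 0.02), whereas without Lysfree 1, 8 were lower with edgeR (median -0.39). Against Differentiated 4 were lower with all libraries (median -0.35), with mt-Nd1 at -1.08, and 10 without Lysfree 1 (median -0.48). Nuclear copies of mitochondrial DNA share sequence with these genes, and the libraries were made from polyadenylated RNA, so the levels of single messages are uncertain. The nuclear genes of the respiratory chain and ATP synthase gave 73 of 83 higher on differentiation (median 1.22) and 70 of 83 lower in Lysfree than in Differentiated cells (median -1.04), or 74 without Lysfree 1 (median -0.97). The genes of the cytosolic ribosome went the other way on differentiation, with 10 of 81 higher and 59 lower (median -0.33). In Lysfree against Undifferentiated 47 of 82 were lower and 9 higher (median -0.39), or 54 and 17 without Lysfree 1 (median -0.35). In Lysfree against Differentiated 27 were lower and 15 higher (median -0.11), or 35 and 29 without Lysfree 1, where the median turned to 0.03. Many cytosolic ribosomal genes have near-identical pseudogenes, so their counts are uncertain. No test between these lists was made.

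**Figure D5:**
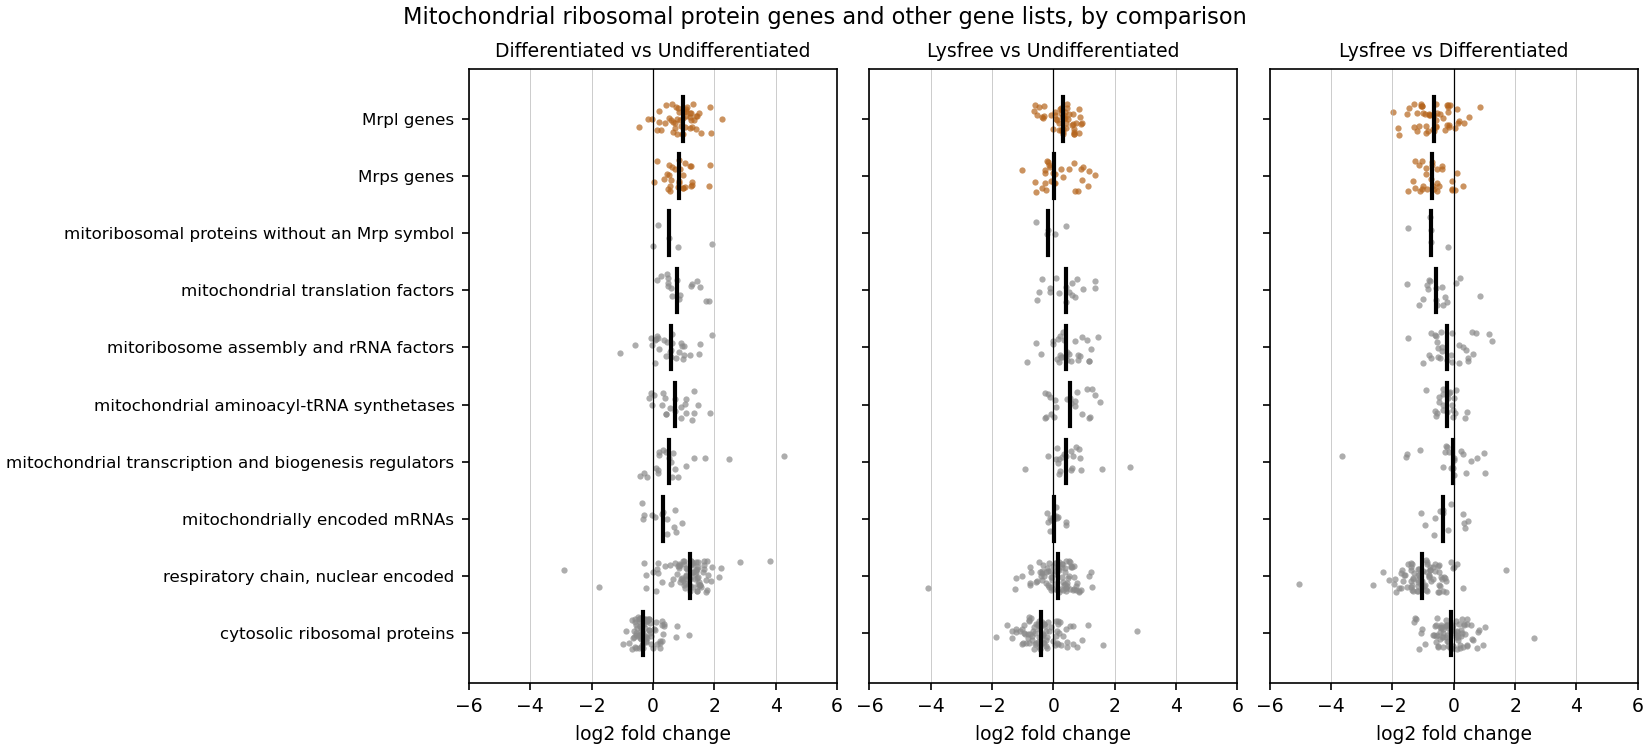
Log2 fold change of every tested gene (points) and the median (black bar) of each gene list, in the 3 comparisons. The Mrpl and Mrps genes (brown) lie with the translation factors and the respiratory chain on the right in Differentiated vs Undifferentiated and on the left in Lysfree vs Differentiated, where the median of the cytosolic ribosomal proteins is -0.11 (0.03 without Lysfree 1).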

How the data were processed

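Polyadenylated RNA of 9 libraries was sequenced. Per the labels, reads were mapped to mm10 with HISAT2 2.0.5 and counted per gene with featureCounts 1.5.0-p3 (submitters' processing notes), and the strand setting and annotation release are not given in the sources used here. The authors deposited raw counts per gene and FPKM values, fragments per kilobase of gene scaled to library depth. Counts were the basis of the main tests and FPKM of the levels. Total counts were 15880144 to 21806693 per library.

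Groups and replicate numbers came from the sample titles. Each pair of groups was fitted on its own 6 libraries with edgeR 4.0.16 (quasi-likelihood test, TMM scaling, genes with a count in at least 1 of the 6 libraries, Benjamini-Hochberg adjustment over all genes tested, threshold 0.05), in R 4.3.3. The SE is the size of the log2 fold change divided by the square root of F. Alternatives were DESeq2 1.42.0, limma 3.58.1 on log2(FPKM + 1) and log2(FPKM + 0.1), median-of-ratios size factors, library sizes alone, edgeR's expression filter, a minimum of 10 counts per library, a joint fit of the 3 groups, the replicate block, placing subunits by protein, genes with no overlapping gene, and leaving out each library. An exact permutation test of 3 against 3 libraries cannot go below p = 0.1, so none was used. The fits were tested on simulated counts.

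Named genes were, for each comparison, direction and subunit, the 5 largest changes among called genes with a mean of at least 1 CPM, 11 genes fixed for their roles, genes called in no comparison or without counts, and the 2 largest changes in either direction of each other list, of which the text gives those for the comparisons it describes. Mrpl9, Mrpl34 and Mrps10, and Kars, Esrra, Nrf1, Ppargc1a, Tufm and Gfm2 of the other lists, were chosen after their values were seen where this rule did not name them. The genes and lists were chosen with earlier results of these data known. Promoter sequences are from RefSeq (GRCm38.p6). Of the 78 genes, 41 overlap another annotated gene and 29 overlap one with a mean count of at least 10, and their counts are uncertain to that extent.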

Additional observations from a re-analysis of the deposited data

How the results depend on the processing

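The counts of higher and lower genes, the medians and the difference between the subunits kept their direction under the alternatives, with the exceptions below. With the same exceptions, the counts stayed within 1.5 times their value, and the medians and the difference within the spread between libraries. The count of lower genes in Differentiated vs Undifferentiated was 2 in place of 1 with library sizes alone, and 1 to 2 when a library was left out. In Lysfree vs Undifferentiated it was 4 in place of 8 with limma on log2(FPKM + 1) and on log2(FPKM + 0.1), and 4 to 11 when a library was left out. In Lysfree vs Differentiated the count of higher genes was 2 to 5 when a library was left out, 5 without Lysfree 1, the difference of the large minus the small subunit median was 0.04 and ran from -0.11 to 0.11 when a library was left out, and the median of the genes with no overlapping gene was -0.54 in place of -0.67. Among the named genes the sign turned in 5 that were not called in the comparison concerned: Mrps6 in Differentiated vs Undifferentiated (-0.01019 with library sizes alone, -0.03923 to 0.09448 when a library was left out), Mrpl11 in Lysfree vs Undifferentiated (-0.01666 with DESeq2, -0.01673 with median-of-ratios factors, -0.03418 with edgeR's filter, -0.05824 with at least 10 counts, -0.04016 and -0.04459 with limma on log2(FPKM + 1) and log2(FPKM + 0.1), -0.08053 to 0.0759 when a library was left out), Mrps12 and Mrps18c in the same comparison (-0.3175 to 0.08207 and -0.3922 to 0.05016 when a library was left out, positive without Lysfree 1), and Mrps18a in Lysfree vs Differentiated (0.01185 with library sizes alone, -0.1302 to 0.01526 when a library was left out). Over all 77 genes, 9 turned sign without Lysfree 1 in Lysfree vs Undifferentiated and 5 in Lysfree vs Differentiated, none of them called with or without it. The cause was not tested. Of 1050 alternatives for 70 results of named genes, 975 kept direction and call, 49 lost the call, 11 gained it and 15 changed sign. Mrpl24 in Lysfree vs Differentiated lost its call most often, and Mrpl14 and Mrpl41 in Lysfree vs Undifferentiated followed.

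Replicate numbers are shared between groups, but same-numbered libraries did not deviate together (correlations of -0.0844 to 0.115), so the numbers were not taken to pair them. With a replicate block 70 genes were higher and 1 lower in Differentiated vs Undifferentiated, 32 and 11 in Lysfree vs Undifferentiated, and 2 and 55 in Lysfree vs Differentiated, none of which moved by over 1.5 times. At this depth every tested gene of the family had at least 77 counts in each library.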
